A study of Mus musculus with 3 samples.

Results

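The genes described here are 37 genes of sterol synthesis and of lipid control by the liver X receptors (LXRs), out of 54331 features in the deposited table. They were picked by mouse symbol from a list chosen with earlier results of these data known. All 37 were found by symbol, all had values above 0 in every library, and all passed the filter of a mean of at least 10 normalized counts that left 13877 features for testing. They fall into 19 enzymes that build sterols, 6 genes grouped as regulators of the SREBP transcription factors, and 12 LXR and lipid genes. The 6 are Insig1, Insig2, Scap, the SREBP genes Srebf1 and Srebf2 themselves, and Stard4, a sterol carrier and SREBP target. RNA came from RAW 264.7 cells, an established male mouse macrophage line of BALB/c origin, and was sequenced as stranded mRNA libraries. There were 3 libraries, each from cells exposed for 5 h to lipopolysaccharide (LPS, a bacterial cell wall product sensed by TLR4) at 100 ng/mL. The control, with a control shRNA and a wild-type genotype label, was 1 library. The other 2 came from cells with shRNA 1 or shRNA 2 against GIV (Girdin, the product of Ccdc88a), with a GIV-depleted genotype label. No library without LPS was analysed here, so these values say nothing of what LPS itself does to the genes. The labels do not say whether the libraries came from separate cultures. The spread behind the p-values is that between the 2 libraries labelled GIV-depleted, pooled in part over all features. It may be technical, mixes different shRNAs, and holds no spread between control libraries.

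Cells make cholesterol from acetyl-CoA through the mevalonate pathway, and then from squalene through lanosterol. When membrane sterol is low, Scap carries the SREBP precursors from the endoplasmic reticulum to the Golgi for cleavage, and the released factors switch on the synthesis enzymes. When sterol is plentiful, the Insig proteins hold Scap back, and oxysterols and the intermediate desmosterol activate the LXRs, which switch on cholesterol export and fatty acid synthesis. In macrophages this balance governs how cholesterol taken up from dead cells and lipoproteins is stored or passed on.

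Each value below is in normalized counts, made by the authors, and runs in the order control, library labelled shRNA 1, library labelled shRNA 2. Totals per library were 47349097 to 49756670 normalized counts, and the commonest low value of 0.931 to 1.11 stands for about 1 read. Ccdc88a, the targeted gene, had 2580, 1734 and 2561, so the library labelled shRNA 2 was level with the control in Ccdc88a mRNA, and both directions below rest in part on that library. All 10 macrophage markers were present, with sums of 480175, 371823 and 393073. In both libraries labelled GIV-depleted, 6 of the 10 were lower and 1 (Ptprc) higher, against 35.2% and 34.9% of all features tested. The median log2 difference of the 10 markers was -0.18. Lyz2, the most abundant of them in the control, had 199781, 121997 and 138145 and made up most of the gap between the sums. Some markers of lymphocytes (Cd3e), neutrophils (Ly6g, Elane), epithelium (Epcam, Cdh1) and fat or liver cells (Adipoq, Apob) were listed at 0 in all 3 libraries. Others of the same lists were above 0. The lymphocyte markers Ms4a1 and Cd4 had 6.56, 8.87 and 20.2, and 0, 0.229 and 9.39. The neutrophil marker S100a8 had 68.8, 45.6 and 75.5. Over whole lists, the 7 lymphocyte markers summed to 12.2, 13.6 and 39.2, the 5 neutrophil markers to 68.8, 45.6 and 77.4, and each of the 4 fibroblast markers stood at 3.74 or below. In bulk RNA, fewer cells of a type and less RNA per cell cannot be told apart. Across protein-coding genes the differences also moved with base composition. Genes with a GC content of at most 45.7% had a median log2 difference of 0.09, and those with at least 54.9% had -0.12.

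Most of the 37 genes stayed near the control, and 4 stood out in both libraries labelled GIV-depleted. Insig2, Scap and Nr1h2, which act in sterol sensing, had values 1.67 to 2.18 times those of the control, and Pmvk, a mevalonate enzyme, had 0.656 and 0.571 of it. These ratios are on the log2(value + 1) scale, and a difference of at least 1.5-fold was taken as large. Values at least 1.5-fold higher in both libraries were seen in 3 of the 37 genes, or 8.11%, against 5.09% of all features tested. Values at least 1.5-fold lower in both were seen in 1 of the 37, or 2.70%, against 2.82%. Among features with a mean of at least 100 normalized counts, where 36 of the members and all 4 of these genes lie, the shares were 2.71% and 1.05%. Against the control, the library labelled shRNA 1 had 3 members at least 1.5-fold higher and 2 at least 1.5-fold lower (8.83% and 7.85% of features). For shRNA 2 these were 3 and 1 (9.99% and 7.19%). No member passed an adjusted p of 0.05 in limma, with adjusted p from 0.41 to 0.99, and no feature in the table did (lowest adjusted p = 0.055, percent called 0). At an unadjusted p under 0.05, limma gave 963 of the 13877 features, 4.52% of them as higher and 2.42% as lower, and 3 and 1 of the members. These were the same 4 genes. With 2 libraries against 1 there was 1 residual degree of freedom, and the lone control has no replicate error of its own.

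**Figure D1:**
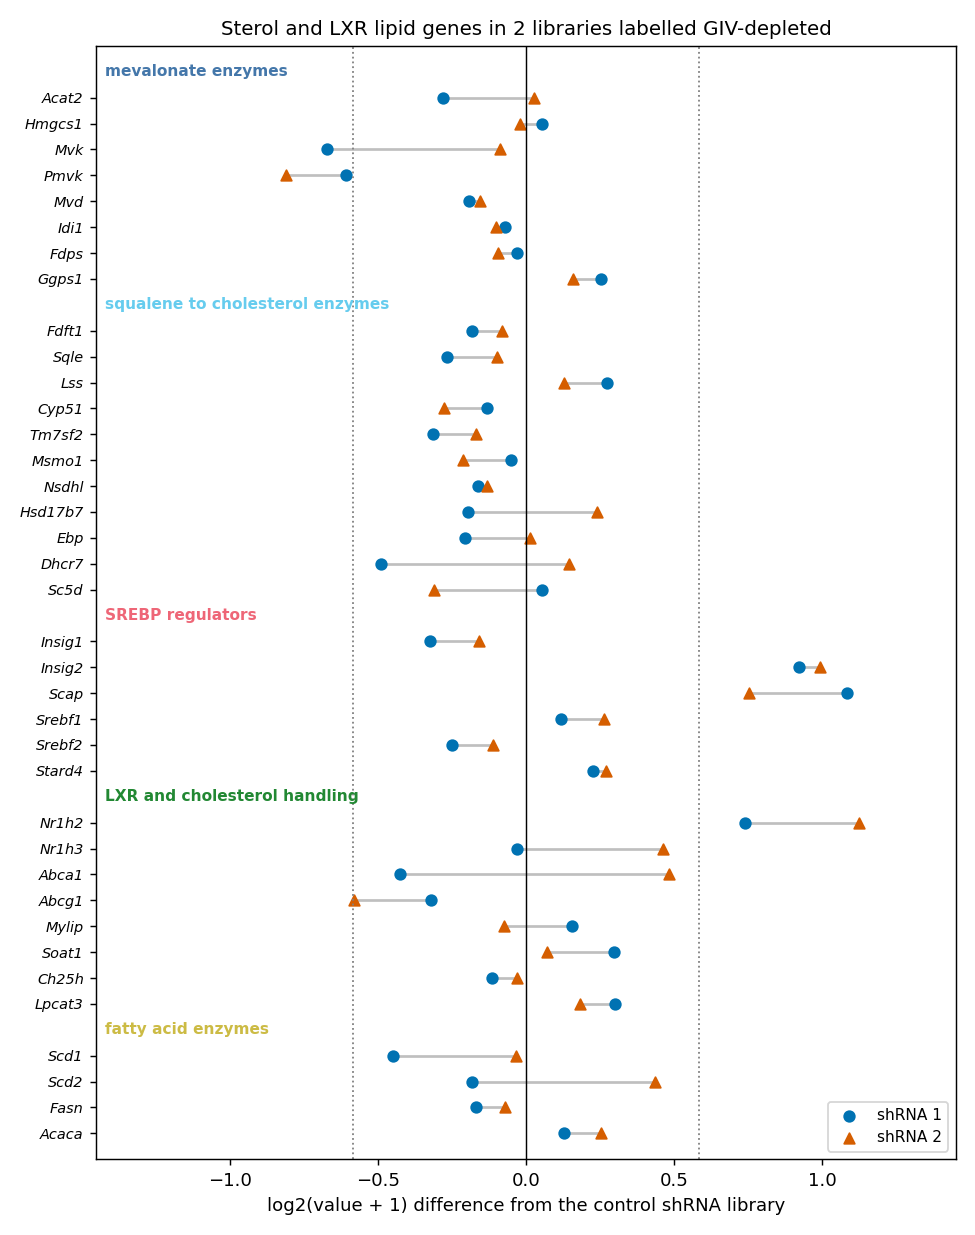
Each row is a gene, and the horizontal axis is the difference from the control library on the log2(value + 1) scale, with circles for the library labelled shRNA 1, triangles for shRNA 2 and dotted lines at 1.5-fold. Insig2, Scap and Nr1h2 lie right of the upper line in both libraries and Pmvk left of the lower line, while most enzymes lie close to 0.

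Within 1.25-fold of the control in both libraries lay 25 of the 37 genes, or 67.6%, against 49.5% of all features tested. Among features with a mean of at least 100 normalized counts, a bound chosen after the values were seen, this held for 24 of 36 members and for 59.9% of features. Of the member groups the sterol enzymes held closest, with 16 of 19 in this band, against 3 of 6 SREBP regulators and 6 of 12 LXR and lipid genes. Related genes outside the 37 lay in it too. These were 11 of 14 for other SREBP processing, 9 of 12 in the isoprenoid branch and 11 of 15 for other fatty acid synthesis. For other sterol handling and for other LXR partners and targets they were 10 of 18 and 6 of 13. The median over both libraries, as a log2 difference, was -0.13 for the sterol enzymes, 0.22 for the SREBP regulators and 0.08 for the LXR and lipid genes, beside -0.0015 for all features tested. For the library labelled shRNA 1 alone these medians were -0.18, 0.17 and -0.07, and for shRNA 2 alone they were -0.09, 0.27 and 0.13. The 2 libraries thus gave LXR and lipid medians of opposite sign. Over both libraries, the SREBP regulator median lay between the values of Srebf1 (0.19) and Stard4 (0.25). Insig2 (0.96) and Scap (0.92) lay well above it, and Insig1 (-0.24) and Srebf2 (-0.18) below it. Lower in both libraries by any amount were 17 of the 37 genes, or 45.9%, against 35.2% of all features, and higher in both were 10, or 27.0%, against 34.9%. The remaining 10 had opposite directions, against 29.9%. With the GC content and length trend removed, 12 members were lower in both and 11 higher in both, so the lean over all 37 genes was not kept. The sterol enzyme median, taken alone, was -0.13 with the trend removed as well.

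The SREBP regulators differed among themselves. Insig2 (ENSMUSG00000003721.14, chromosome 1, 121304353 to 121332589, GRCm38, minus strand), which retains the Scap and SREBP complex in the endoplasmic reticulum, had 512, 971 and 1018 normalized counts. Both libraries labelled GIV-depleted lay above the control, and they lay close to each other. Over both libraries the log2 difference came to 0.96 (SE 0.17; limma adjusted p = 0.41). Scap (ENSMUSG00000032485.14, chromosome 9, 110333288 to 110384950, plus strand), the sterol-sensing escort of the SREBPs, had 1645, 3484 and 2769. Its highest value was in the library labelled shRNA 1, and the control lay below both others. Over both libraries its log2 difference came to 0.92 (SE 0.19; limma adjusted p = 0.50). Features at least as far above the control in both libraries made up 2.73% of those tested for Insig2 and 3.61% for Scap.

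Insig1, the paralog of Insig2 and a direct SREBP target, lay below the control in both, with 2579, 2061 and 2308 normalized counts. Its log2 difference was -0.24 (SE 0.15, adjusted p = 0.80 in limma), less than 1.25-fold in the library labelled shRNA 2 and just past it in shRNA 1. Srebf2, which encodes the SREBP that chiefly drives cholesterol genes, had 8099, 6817 and 7504, lowest in the library labelled shRNA 1. Srebf1, whose products drive fatty acid genes and which LXRs induce, had 3084, 3346 and 3701. The 2 SREBP genes thus leaned in opposite directions, each by at most 0.26 on the log2 scale. With the GC content and length trend removed, the log2 difference was 0.36 in place of 0.19 for Srebf1 and -0.05 in place of -0.18 for Srebf2, which was then no longer lower in both libraries. Stard4, a cytosolic sterol carrier and SREBP target, had 1218, 1425 and 1468, above the control in both libraries by 0.23 and 0.27 on the log2 scale.

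**Figure D2:**
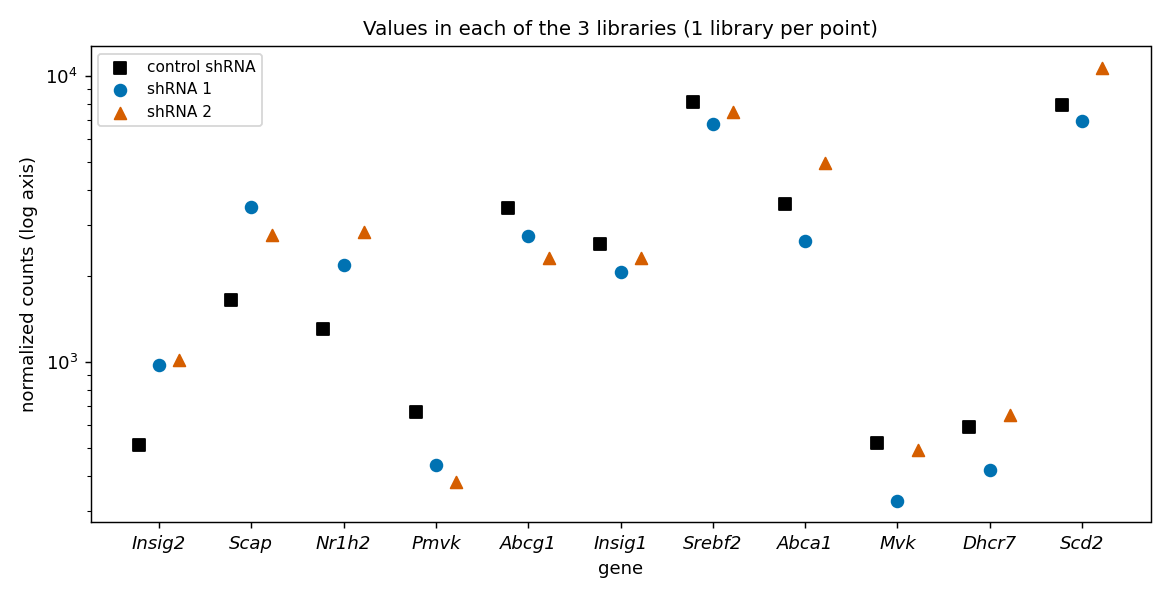
The vertical axis is normalized counts on a log axis for 11 genes, and each point is 1 library (square for the control, circle for shRNA 1, triangle for shRNA 2). The control point of Insig2, Scap and Nr1h2 lies below both others and that of Pmvk and Abcg1 above both, whereas for Abca1, Dhcr7 and Scd2 it lies between them.

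Among the LXR genes the nuclear receptors differed from each other. Nr1h2 (ENSMUSG00000060601.13, chromosome 7, 44549616 to 44553951, minus strand), which encodes the widely expressed LXR beta, had 1304, 2179 and 2841 normalized counts. The control was lowest and the library labelled shRNA 2 highest. The fitted log2 difference came to 0.93 (SE 0.21; limma adjusted p = 0.53), and 3.70% of features tested lay at least as far above the control in both. Nr1h3, which encodes LXR alpha, had 453, 443 and 625. The library labelled shRNA 1 was thus level with the control, and that labelled shRNA 2 was at 1.38 times the control.

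The base composition of these 4 genes and their differences without the GC and length trend were as follows. GC content was 46.5% for Insig2, 56.7% for Scap, 60.8% for Nr1h2 and 56.3% for Pmvk. With a smooth trend over GC content and transcript length removed, the log2 difference was 0.79 for Insig2, 0.83 for Scap, 1.12 for Nr1h2 and -0.60 for Pmvk. The 3 genes above the control were still at least 1.5-fold higher in both libraries, while Pmvk was no longer 1.5-fold lower in the library labelled shRNA 1 (-0.48). The part that the lower macrophage marker sums play in these differences was not tested.

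The start regions of the 3 higher genes are set beside those of Hmgcs1 and Insig1, a pair of well-known SREBP targets that were not higher. The 250 bases before the RefSeq start site were searched (build GRCm38.p6), which was possible for 30 of the 37 members and 39 start sites. Capitals mark matches, on either strand, to the sterol response element TCACNCCAC, the NF-Y box CCAAT, the Sp1 box GGGCGG and the E-box CACGTG, which reads alike on both strands. Where a gene has several start sites the one furthest upstream is shown. The run of Insig1 stops at 201 bases, where the annotated gene begins. Each sequence runs 5′ to 3′ on the strand of the gene.
Hmgcs1, chr13:119690101-119690350, plus strand: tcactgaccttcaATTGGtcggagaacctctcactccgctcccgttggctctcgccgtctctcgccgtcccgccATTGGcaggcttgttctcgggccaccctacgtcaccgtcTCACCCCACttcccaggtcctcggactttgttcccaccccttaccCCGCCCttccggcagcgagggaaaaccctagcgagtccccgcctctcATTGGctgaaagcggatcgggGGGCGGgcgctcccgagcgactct
Insig1, chr5:28071162-28071362, plus strand: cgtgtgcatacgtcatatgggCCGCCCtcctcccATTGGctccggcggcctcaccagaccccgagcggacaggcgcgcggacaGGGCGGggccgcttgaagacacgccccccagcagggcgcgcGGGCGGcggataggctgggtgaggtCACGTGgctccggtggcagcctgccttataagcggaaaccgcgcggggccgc
Insig2, chr1:121332590-121332839, minus strand: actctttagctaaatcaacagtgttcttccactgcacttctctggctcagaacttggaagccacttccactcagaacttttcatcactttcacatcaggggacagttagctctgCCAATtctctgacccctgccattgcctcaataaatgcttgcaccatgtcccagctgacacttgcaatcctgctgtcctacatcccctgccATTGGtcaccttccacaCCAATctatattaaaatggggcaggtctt
Scap, chr9:110333038-110333287, plus strand: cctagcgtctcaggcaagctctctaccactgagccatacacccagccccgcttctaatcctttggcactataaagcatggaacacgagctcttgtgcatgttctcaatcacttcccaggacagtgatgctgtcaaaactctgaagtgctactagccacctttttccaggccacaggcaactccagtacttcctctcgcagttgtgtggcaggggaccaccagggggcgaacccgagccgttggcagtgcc
Nr1h2, chr7:44553966-44554215, minus strand: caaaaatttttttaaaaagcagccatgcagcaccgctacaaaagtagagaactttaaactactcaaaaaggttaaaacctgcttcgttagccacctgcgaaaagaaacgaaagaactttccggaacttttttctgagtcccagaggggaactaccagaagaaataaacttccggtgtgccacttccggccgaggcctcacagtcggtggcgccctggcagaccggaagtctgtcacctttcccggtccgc
In Hmgcs1 a sterol response element began at -137, counted back from the start site, with 3 NF-Y boxes and 2 Sp1 boxes around it. Insig1 held an E-box at -101, 1 NF-Y box and 3 Sp1 boxes. Insig2 held 3 NF-Y boxes, at -136, -46 and -29, before the upstream of its 3 start sites, and 1 Sp1 box before each of the other 2, at -128 for the one furthest downstream. Scap held none of these letters before the upstream of its 2 start sites, and an E-box at -40 and an Sp1 box at -30 before the other. The Nr1h2 window held none. The values are per gene and do not show which start site was used. A match is only a match of letters in this window.

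Across the members, CCAAT was found before a start site of 15 of 16 sterol enzyme genes, 4 of 5 SREBP regulators and 4 of 9 LXR and lipid genes, against 37.5% of 27025 genes with a start site. GGGCGG was found in 14 of 16, 5 of 5 and 3 of 9, against 35.4%. CACGTG was found in 3 of 16, 2 of 5 and 1 of 9, against 6.86%. TCACNCCAC was found in Hmgcs1 alone of the 30, against 1.22% of genes. A perfect DR4 element, the half-site repeat that LXRs bind, was found in none of the 30 and in 0.0148% of genes. A match was so rare over all genes that its absence from the 30 carries no information.

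Among the mevalonate enzymes, Pmvk stood apart. Pmvk (ENSMUSG00000027952.16, chromosome 3, 89454541 to 89469013), phosphomevalonate kinase, had 665, 436 and 379 normalized counts, with the control above both other libraries. The fitted log2 difference came to -0.71 (SE 0.22; limma adjusted p = 0.68), and 2.65% of features tested lay at least as far below the control in both. Mvk, the kinase that acts just before it, had 522, 327 and 492. The library labelled shRNA 1 stood at 0.627 of the control and that labelled shRNA 2 near it, so it was lower in both, and at least 1.5-fold lower in 1 library. Mvd, the decarboxylase that follows Pmvk, had 589, 516 and 530, with both libraries within 1.25-fold of the control.

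Enzymes on either side of these kinases lay closer to the control. Hmgcs1, which makes HMG-CoA and is a classic SREBP target, had 4699, 4875 and 4630 normalized counts. Its fitted log2 difference came to 0.02 (SE 0.13). Idi1, the isopentenyl diphosphate isomerase, had 5782, 5504 and 5395, and Fdps, farnesyl diphosphate synthase, had 7957, 7784 and 7452. In these 3 abundant transcripts no library was further from the control than 0.10 on the log2 scale. Acat2, a cytosolic thiolase that supplies acetoacetyl-CoA, had 797, 656 and 812, lowest in the library labelled shRNA 1. Ggps1, which makes the geranylgeranyl group used in protein prenylation, was the 1 mevalonate gene above the control in both, with 1671, 1993 and 1866. The 8 genes together held 5 that were lower in both libraries, 1 that was higher in both and 2 with opposite directions. Over all features tested these shares were 35.2%, 34.9% and 29.9%. With the GC content and length trend removed, Mvk, Mvd and Fdps were no longer lower in both libraries, while Hmgcs1 was. The lean of these genes thus depended on that trend.

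Of the 11 enzymes from squalene to cholesterol, none differed from the control by 1.5-fold in either library. There were 6 lower in both, 1 higher in both and 4 with opposite directions, against 35.2%, 34.9% and 29.9% of all features tested. The median log2 difference of the 11 was -0.13. Sqle, squalene epoxidase and a rate-limiting step, had 4198, 3485 and 3919 normalized counts. Its fitted log2 difference came to -0.18 (SE 0.14). Cyp51, the lanosterol demethylase, had 4064, 3708 and 3352, and Msmo1, a sterol methyl oxidase, had 6508, 6283 and 5622. Both were lowest in the library labelled shRNA 2. Fdft1, squalene synthase, had 1699, 1499 and 1607, Nsdhl, a sterol dehydrogenase, had 1711, 1530 and 1562, and the scarcer sterol reductase Tm7sf2 had 142, 114 and 126. In all 3 the control was the highest library. Lss, which closes the ring to form lanosterol, was the exception, with 2027, 2450 and 2217 and a log2 difference of 0.20 (SE 0.15).

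The last steps split between the libraries. Dhcr7, which reduces the immediate precursor of cholesterol, had 590, 420 and 653 normalized counts, with the control between the others and a 1.55-fold gap between the 2 libraries labelled GIV-depleted. Sc5d, the desaturase just before it, had the opposite order, with 1426, 1482 and 1150. Hsd17b7, a sterol ketoreductase, had 1472, 1284 and 1740. Ebp, the sterol isomerase, had 1090, 944 and 1100 and was level with the control in shRNA 2. For these 4 genes a mean over both libraries hides directions that differ, and there is no test of 1 library against 1.

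**Figure D3:**
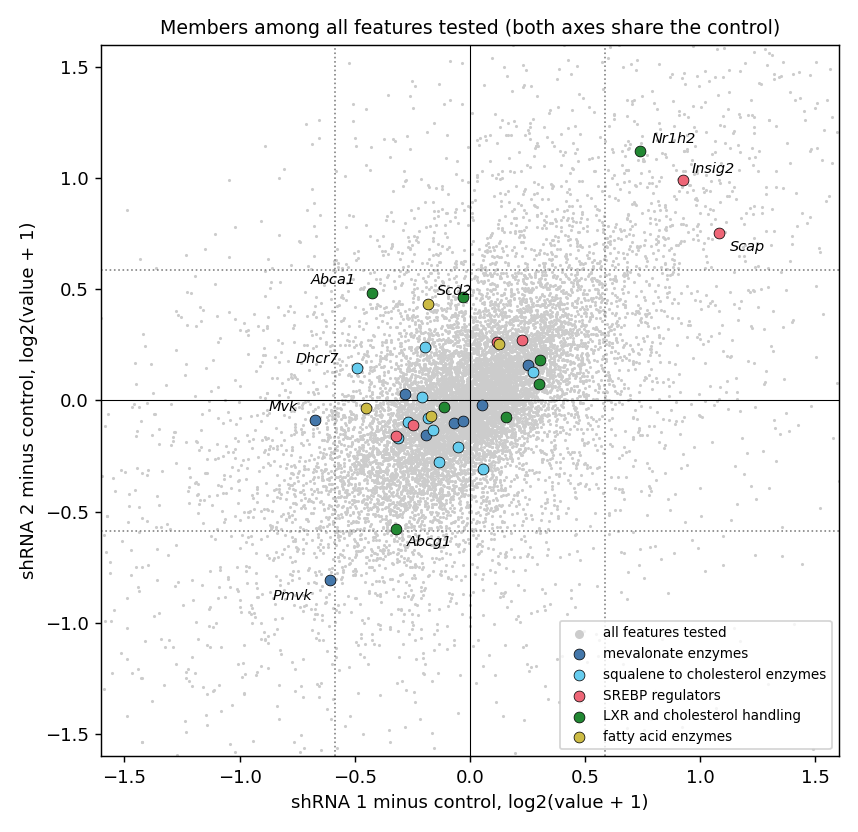
Each point is a feature, with the difference from the control of the library labelled shRNA 1 on the horizontal axis and of shRNA 2 on the vertical axis, both on the log2(value + 1) scale and both against the same control. Members are coloured by group over all features tested in grey. Insig2, Scap and Nr1h2 lie past 1.5-fold (dotted lines) on both axes, Pmvk lies past it on the lower side, and Abca1 lies in the quadrant of opposite directions.

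The cholesterol export genes differed from each other too. Abca1, which loads cholesterol onto lipid-poor apolipoprotein, had 3555, 2650 and 4969 normalized counts. The library labelled shRNA 1 lay below the control and shRNA 2 above it, a 1.87-fold gap between those 2 libraries, the widest among the members. Its log2 difference over both was 0.03 (SE 0.41). Abcg1, which exports cholesterol to HDL, had 3441, 2752 and 2302, with the control above both. The fitted log2 difference came to -0.45 (SE 0.17; limma adjusted p = 0.73), and neither library was 1.5-fold lower. Both export genes are textbook LXR targets, and in the library labelled shRNA 2 they lay on opposite sides of the control.

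The other LXR and sterol handling genes varied less. Soat1, which esterifies cholesterol for storage in lipid droplets, had 14870, 18289 and 15632 normalized counts, highest in the library labelled shRNA 1. Lpcat3, an LXR target that puts polyunsaturated chains into phospholipids, had 1868, 2304 and 2119, above the control in both by 0.30 and 0.18 on the log2 scale. Mylip, an LXR-induced ubiquitin ligase that degrades lipoprotein receptors, had 325, 361 and 308. Ch25h, which makes 25-hydroxycholesterol and is known as an interferon-induced gene, was scarce, with 32.6, 30.0 and 31.9. At that level the log2 difference of -0.07 carries an SE of 0.43, and no difference was detectable.

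In fatty acid synthesis, Fasn, the fatty acid synthase, had 12423, 11050 and 11826 normalized counts, and Acaca, the acetyl-CoA carboxylase that feeds it, had 4457, 4870 and 5312. The 2 genes leaned in opposite directions, Fasn lower and Acaca higher in both libraries, each within 1.25-fold of the control. With the GC content and length trend removed, the log2 difference of Fasn turned from -0.12 to 0.03, while that of Acaca was 0.19 either way. The stearoyl-CoA desaturases, which make monounsaturated fatty acids, were lowest in the library labelled shRNA 1. Scd1 had 2297, 1680 and 2244, and Scd2 had 7915, 6970 and 10701. Scd2 was 1.54 times as high in the library labelled shRNA 2 as in shRNA 1, and the control lay between. All 4 fatty acid genes had a higher value in the library labelled shRNA 2 than in shRNA 1. Over all members, 4 were at least 1.5-fold higher in shRNA 2 than in shRNA 1 (Mvk, Dhcr7, Abca1 and Scd2) and 0 at least 1.5-fold lower, beside 8.96% and 6.54% of all features.

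**Figure D4:**
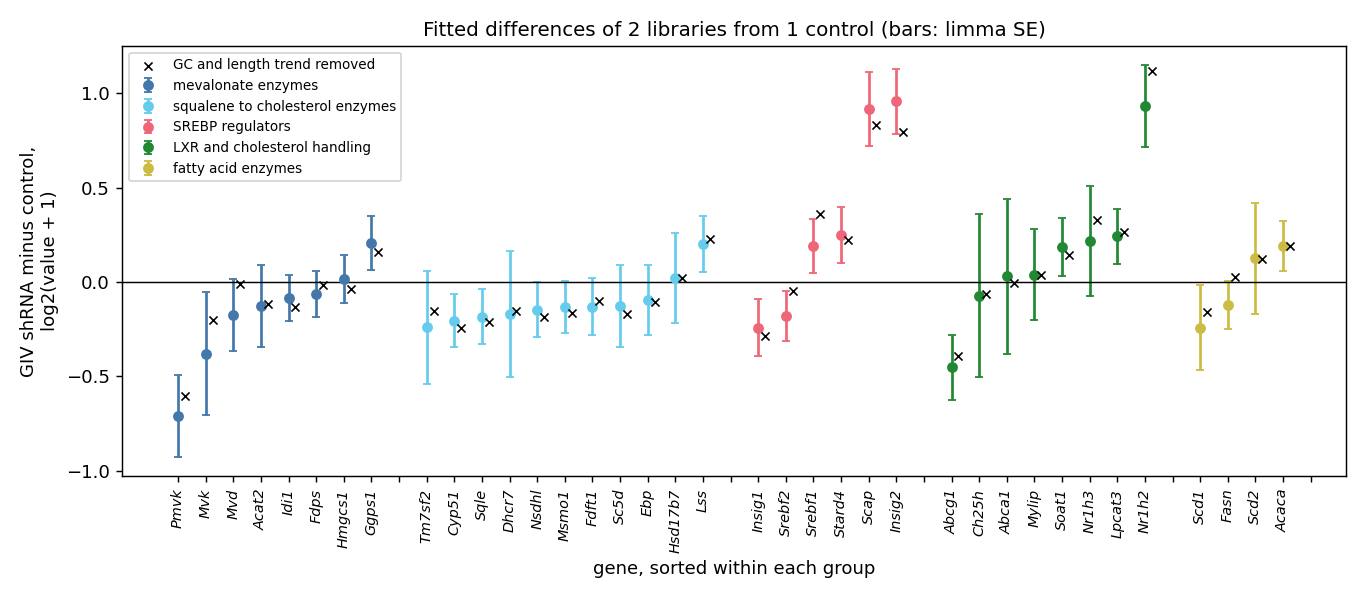
The vertical axis is the fitted log2(value + 1) difference of the 2 libraries labelled GIV-depleted from the 1 control for each gene, coloured by group, with bars for the limma SE and crosses for the difference after removal of the GC content and length trend. Insig2 (0.96), Scap (0.92) and Nr1h2 (0.93) stand above the rest and Pmvk (-0.71) below, with crosses at 0.79, 0.83, 1.12 and -0.60.

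Related genes outside the 37 were counted as lists, and none of their genes passed in limma or was at least 1.5-fold from the control in the same direction in both libraries. Of all features tested, 5.09% were that far above the control in both and 2.82% that far below. By any amount, 34.9% of all features were higher in both and 35.2% lower in both. Of 14 other genes for SREBP processing and sterol sensing, 5 were higher in both and 4 lower in both, with a median log2 difference of 0.0042. Rnf139, an endoplasmic reticulum ubiquitin ligase, had 3219, 2778 and 2272 normalized counts, and Sec24a, a coat protein of the vesicles that leave the endoplasmic reticulum, had 1541, 1833 and 1854. Of 18 tested genes for other sterol handling, 5 were higher in both and 9 lower in both, with a median of -0.12. Osbpl8, a lipid transfer protein, had 4568, 6459 and 6248, Osbpl2 had 518, 631 and 738, and Cyp27a1, a sterol hydroxylase, had 156, 97.4 and 126. Osbpl8 was thus above the control in both libraries by 0.50 and 0.45 on the log2 scale, short of 1.5-fold.

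Of 13 tested LXR partners and further targets, 5 were higher in both and 5 lower in both (34.9% and 35.2% of all features), with a median of 0.02. The LXR target Pltp, a phospholipid transfer protein, had 2249, 1703 and 1120 normalized counts, and Smpdl3a, another LXR target, had 499, 344 and 354. Both were below the control in both libraries, whereas Lpl, lipoprotein lipase and also an LXR target, was above it in both, with 47493, 53540 and 54611 (a gene set beside them after its values were seen). The coactivator Ncoa1 had 738, 1103 and 849. Of 15 further fatty acid genes, 5 were higher in both and 9 lower in both, with a median of -0.08, and Fads2, a desaturase of polyunsaturated fatty acids, had 5243, 4397 and 3530. Mid1ip1, which activates acetyl-CoA carboxylase, had 1229, 1363 and 1717, and the elongase Elovl6 had 457, 473 and 690. Of 12 genes in the isoprenoid branch, 5 were higher in both and 4 lower in both, with a median of 0.01. Fntb, the farnesyltransferase beta subunit, had 330, 683 and 403, Dhdds, which makes dolichol chains, had 2214, 1726 and 1693, and Pdss2, which makes the ubiquinone tail, had 446, 492 and 564. Fntb was high in 1 library, that labelled shRNA 1.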

How the data were processed

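RNA of 3 RAW 264.7 libraries was measured by stranded mRNA sequencing. The authors' table gives normalized counts per gene, a deposited signal with no value below 0. Per the submitters' processing notes, the tools were Salmon, DESeq and DESeq2 and the build was GRCm38, with no roles or settings. No source used here names the annotation release. Whole counts were not recovered, so no count model was fitted. Identifiers were matched to GENCODE M21 without their version, and 54097 of 54331 had a symbol.

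Analyses used log2(value + 1), which understates changes of low genes. The 13877 features with a mean of at least 10 were fitted with limma 3.58.1 in R 4.3.3 (eBayes with trend, two-sided, Benjamini-Hochberg over all features), as 2 libraries labelled GIV-depleted against 1 control. The code was also run on simulated data, in which all 3 libraries had the same noise and both shRNAs the same effect. Such data do not show how the fit behaves where the shRNAs differ or the control varies otherwise. Single libraries were compared by size only, at 1.5-fold. Lists were described by counts and medians. All members are named, and up to 3 genes of each other list with the largest absolute difference at a mean of at least 50. Some genes that this rule names are not reported here. The members and lists were chosen with earlier results of these data known. Transcript lengths and GC content are medians over annotated transcripts. Promoter sequences are RefSeq's.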

Additional observations from a re-analysis of the deposited data

How the results depend on the processing

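Alternatives covered the pseudocount (0.5 or 5), the filter (none, or a mean of at least 50), equal library totals, quantile normalization, removal of the GC content and length trend, no variance trend, a 2-fold rule, and omitting either of the GIV-depleted libraries. With 1 library left per arm there is a value and no test. No paired analysis was possible because the control label carries no replicate number and there is 1 control. No member passed in limma under any of the 8 refitted settings. Of all features, 1 passed with the GC content and length trend removed, 1 with equal totals and 1 with a mean of at least 50.

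Insig2, Scap and Nr1h2 kept their direction under every alternative, from 0.79 to 0.97, 0.83 to 0.93 and 0.90 to 1.12 in the refits, but none was 2-fold higher in both libraries (0 of 37). Members at least 1.5-fold lower in both numbered 1, and 0 with the trend removed and with a 2-fold rule. Leaving out 1 library gave 1 to 2 such genes, 2 without the library labelled shRNA 2. Members higher than the control numbered 10 in both libraries, and 13 to 17 when 1 library was left out, 17 of them without shRNA 1. Members lower than the control numbered 17 in both libraries, 12 with the trend removed, and 20 to 24 when 1 library was left out. The SREBP regulator median was 0.29 in place of 0.22 with the trend removed. The LXR and lipid median ranged from -0.072, without the library labelled shRNA 2, to 0.13, without shRNA 1. Differences changed sign with the trend removed for Abca1 (-0.0057), Fasn (0.027, from -0.12) and Hmgcs1 (-0.034), and with quantile normalization for Hsd17b7 (-0.0071) and Mylip (-0.00092). By a 2-fold rule, 960, 1016 and 865 features differed for shRNA 1 against control, shRNA 2 against control and shRNA 2 against shRNA 1. Ch25h, at about 30 normalized counts, is the member that depth limits most.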

Other observations

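Levels of different genes can be set beside each other only per length. Per kilobase of the median annotated transcript, Soat1 was highest in the control, at 18799 normalized counts per kilobase, followed by Fasn at 14295, Fdps at 8910 and Idi1 at 7761. Per kilobase of the longest annotated transcript, the first was Fdps at 2694, then Msmo1 at 2192, Idi1 at 1910 and Soat1 at 1776. Ch25h, with 1 annotated transcript, was lowest by either length, at 23.5. The order of the abundant genes thus depends on the transcript length chosen, while Soat1, Fdps and Idi1 were among the 4 highest by both.

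Several members overlap another gene on the opposite strand. Cyp51 shares its end with Akap9, a scaffold protein gene, which had 1917, 3035 and 2838 normalized counts (control, shRNA 1, shRNA 2), while Cyp51 had its highest value in the control. Fdft1 overlaps Ctsb, a far more abundant cathepsin gene with 135621, 105927 and 115237. The overlapping genes of Insig2 and Scap stood at about 10 or below in every library, and no annotated gene of the table overlaps Nr1h2. Tm7sf2 overlaps Vps51 on the same strand, a gene with 1620, 1276 and 1353, and both were highest in the control. Ch25h overlaps the noncoding RNA gene Gm26902, which had 211, 200 and 155 and so exceeded Ch25h in every library. The library kit is stranded, but the counting settings are not given in the sources used here, and the effect of these overlaps was not tested.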
